A study of Anser cygnoides with 6 samples.

Results

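Malic enzymes oxidize malate to pyruvate and carbon dioxide, and they hand the electrons to NADP or NAD. The cytosolic form, ME1, makes NADPH, the reductant that fatty acid synthase uses to build palmitate, and in birds the liver is the main site of this synthesis. ME2 and ME3 are mitochondrial forms, and in mammals ME2 works mainly with NAD and ME3 with NADP. ME1 takes part in the citrate-malate shuttle, in which citrate leaves the mitochondrion, ATP citrate lyase splits it into acetyl-CoA and oxaloacetate, and oxaloacetate returns as malate and pyruvate.

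All gene models of the liver mRNA table of lion-head geese (Anser cygnoides) whose description holds the words malic enzyme or the domain name malic_2 were taken, which gave 5 models of 21009. The RNA came from 3 high-intake-fed and 3 normally fed geese, and every library holds the RNA of 1 bird, numbered below as replicate 1, 2 or 3 of its group. The geese entered the trial at an age of 120 days. Normally fed geese had free access to feed, whereas the other group was given several forced meals each day, and feed was withheld overnight before sampling. The paper states the same diet for all geese, and mentions boiled rice where it describes the forced meals. Each group was kept in its own isolator, so that isolator and feeding cannot be told apart, and the sex of the birds sequenced is not stated. The libraries held 14154910 to 16993373 counts each. Albumin, the main plasma protein made by hepatocytes, took 6.79% to 22.2% of the counts of a library, so the tissue label was matched by its most typical mRNA.

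The 5 models lay at 3 places of the goose assembly used by the authors, whose build the sources used here do not name. Scaffold 3 carried model 423.1 (maker-Hic_scaffold_3-augustus-gene-423.1, 42182720 to 42195556, minus strand, coding length 786 bases or 262 codons) and model 423.2 (maker-Hic_scaffold_3-augustus-gene-423.2, 42207716 to 42209687, minus strand, 210 bases or 70 codons). These neighbours were 12159 bases apart with 0 models between them, and their coding lengths added up to 996 bases. Scaffold 1 carried model 117.1 (11682979 to 11697846, minus strand, 1065 bases or 355 codons) and model 117.2 (11716127 to 11721483, minus strand, 243 bases or 81 codons). They were 18280 bases apart, again with 0 models between them, and added up to 1308 bases. Model 885.2 on scaffold 4 (88520295 to 88536401, plus strand) had the longest coding sequence of the 5, with 1794 bases or 598 codons. Exons and untranslated regions are not annotated in the table, and the genomic spans given here include introns.

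The descriptions divided the domains among the models. Model 885.2 held the malic enzyme signature, the malic_2 domain and the NAD binding domain together. On scaffold 1 the malic_2 domain was listed for model 117.2 and the NAD binding domain for model 117.1. On scaffold 3 the NAD binding domain was listed for both models, and neither carried the malic_2 domain. A pair of Gene Ontology terms for malic enzyme activity was attached to 4 models of the whole table, all of them among these 5. Model 423.2, with its 70 codons, was the member without them.

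The table does not name the isoforms, so the genes around each place were compared with those around ME1, ME2 and ME3 in the RefSeq annotation of the Taihu goose, within 10 genes on each side. Of 12 neighbour genes searched, 4 flanked both the scaffold 3 models and RefSeq ME1, namely PGM3, SNAP91, RIPPLY2 and CYB5R4. Another 4, FZD4, PRSS23, PCF11 and RAB30, flanked the scaffold 1 models and ME3. The remaining 4, SKA1, MAPK4, ELAC1 and SMAD4, flanked the scaffold 4 model and ME2. No neighbour of the 12 was shared in any other combination. The 12 were searched with the neighbours in view, so this absence is not a test of the match. The matches give the order of the genes in 2 assemblies, and the models are called by scaffold below.

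Expression levels are given as CPM, the counts of a model relative to the total of its library (per 1e6 counts), scaled by the TMM method. Model 423.1 had 62.3, 85.02 and 187 CPM in normally fed replicates 1, 2 and 3, and 740, 2175 and 173 CPM in high-intake-fed replicates 1, 2 and 3. Replicates 1 and 2 under high intake were above every normally fed bird, whereas replicate 3 lay just under normally fed replicate 3, so that the groups overlapped. Scaled by the plain library total instead, the same birds were at 199 and 171 CPM and the groups did not overlap. The group means were 111 ± 66.5 CPM (SD, n = 3) and 1029 ± 1031 CPM (SD, n = 3), and the SD of the high-intake-fed birds was as large as their mean.

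Model 423.2 had 14.9, 11.5 and 37.3 CPM in the normally fed birds and 170, 828 and 80.7 CPM in the high-intake-fed birds. All high-intake-fed birds were above all normally fed birds, under TMM as well as under plain library totals. The means were 21.3 ± 14.01 CPM and 360 ± 408 CPM (SD, n = 3 each). As for its neighbour, replicate 2 was the highest and replicate 3 the lowest of the high-intake-fed birds, and replicate 3 was the highest of the normally fed birds.

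**Figure D1:**
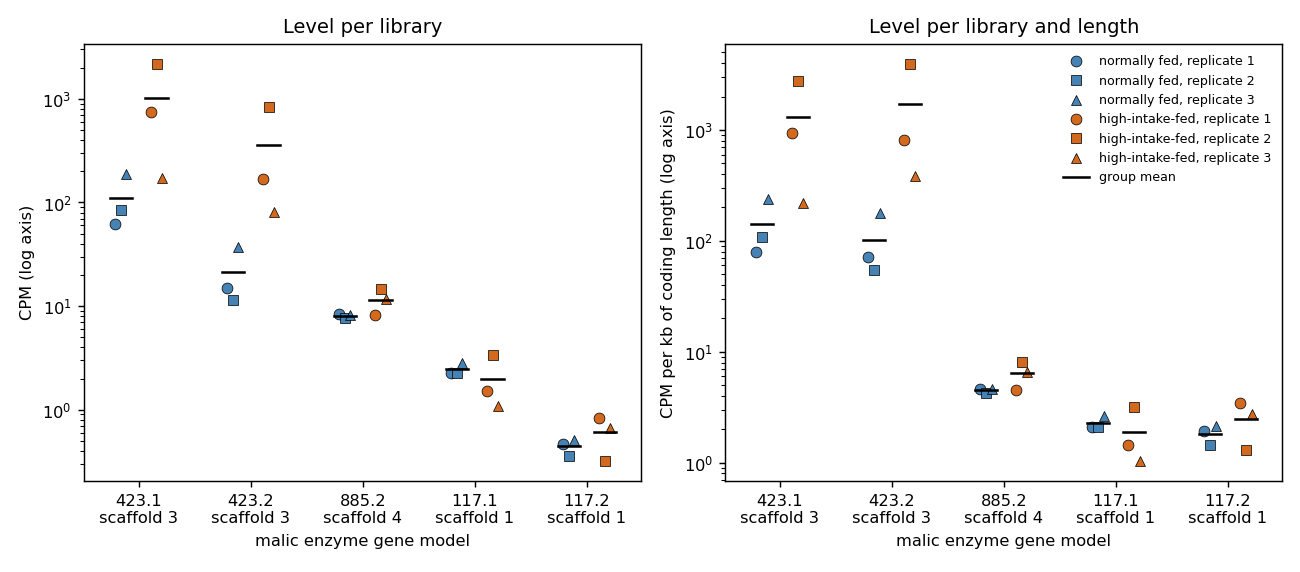
Level of the 5 malic enzyme models in every library, in CPM (left) and in CPM per kb of coding length (right), on log axes, with each bird as a point and the group mean as a bar. The scaffold 3 models lie above the others in every bird, and high-intake-fed replicate 3 of model 423.1 (173 CPM) falls below normally fed replicate 3 (187 CPM).

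Counting noise was small beside the spread between birds. Model 423.1 held 937 to 2903 counts in the normally fed libraries and 2852 to 34260 in the high-intake-fed libraries, and model 423.2 held 195 to 579 and 1327 to 13041. Within the high-intake-fed group the highest bird exceeded the lowest by 12.5-fold for model 423.1 and by 10.3-fold for model 423.2. High-intake-fed replicate 2 alone gave 70.4% of the summed CPM of its group for model 423.1 and 76.7% for model 423.2. By rank of counts within a library, model 423.1 was mRNA number 1926, 1448 and 610 in the normally fed birds and number 129, 42 and 524 in the high-intake-fed birds. Model 423.2 was at places 3295 to 6720 in the former and at places 136 to 1317 in the latter, of the 21009 models.

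The comparison of the feeding groups asks which liver mRNAs differ under high intake, and it was fitted over all models with the quasi-likelihood test of edgeR. Model 423.2 was higher in the high-intake-fed geese by 4.08 ± 0.92 on the log2 scale (SE, n = 3 against 3), a fold change of 16.9, with an unadjusted p of 0.0022 and an adjusted p of 0.0786. Model 423.1 was higher by 3.21 ± 0.87 (SE), a fold change of 9.24, with an unadjusted p of 0.00609 and an adjusted p of 0.117. Neither passed an adjusted p of 0.05. Their log2 fold changes were the 25th and the 44th highest of the 12914 models tested, and their edgeR p values the 360th and the 671st lowest. In the exact permutation test of mean log2 CPM, two-sided, model 423.2 had p = 0.1, the smallest value that 3 birds against 3 can give, and model 423.1 had p = 0.2.

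Of the 5 malic enzyme models 4 passed the filter on low counts and were tested, and 0 of the 4 passed adjusted p in edgeR, where 1.47% of all tested models did (0.643% higher and 0.829% lower under high intake). The study's methods name an unadjusted p under 0.05 and a fold change over 2, while its volcano plot caption gives other thresholds. At the former cut-offs in edgeR 2 of the 4 passed, both higher under high intake. Of all tested models 4.26% passed as higher and 9.59% in either direction. The study's own calls were not reproduced here. The paper reports malic enzyme and ME2 as higher under high intake, both by RNA-seq and by qRT-PCR. It does not tie either name to a gene model. The groups did not overlap in 1 of the 4, model 423.2, against 11.1% of all tested models higher, 13.3% lower and 24.4% in either direction. DESeq2 called both scaffold 3 models at adjusted p of 0.000248 (423.1) and 0.00285 (423.2), where it called 3.45% of its models higher. The exact test of edgeR also called both, at 0.00781 and 0.000663, where 2.86% were called higher. With no filter on low counts model 423.2 was called at 0.0259 and model 423.1 was not (0.0596), where 0.895% of models were called higher. Without high-intake-fed replicate 3 both were called by the quasi-likelihood test at 0.0355 and 0.0368, against 2.38% of models called higher. Without high-intake-fed replicate 2 the log2 fold change was 2.04 for model 423.1 and 2.56 for model 423.2, with adjusted p of 0.188 and 0.0807. In 12 of the 16 alternative tests or settings no malic enzyme model was called.

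Added up within each library, the scaffold 3 models had 77.2, 96.5 and 224 CPM in the normally fed birds and 910, 3002 and 254 CPM in the high-intake-fed birds. The sums did not overlap between the groups. The summed log2 fold change was 3.39 ± 0.88 (SE, n = 3 against 3), with an adjusted p of 0.105 in edgeR. The sum was called by DESeq2 (adjusted p = 0.0147), by the exact test of edgeR (0.00448) and without high-intake-fed replicate 3 (0.0362). It was not called in the other 12 of its 15 alternatives.

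Summed marker levels did not overlap between the groups for hepatocyte, erythrocyte and stellate cell markers, and overlapped for the other lists. Of all single models tested, 24.4% did not overlap, in either direction. Of the 10 hepatocyte marker genes 6 matched, with 8 models. Their summed level was 216894 to 288566 CPM in the normally fed and 88872 to 202752 CPM in the high-intake-fed birds. It was lowest in high-intake-fed replicate 2. Albumin alone took 6.79% to 22.2% of the counts of a library, so this sum rests largely on albumin. Of 7 erythrocyte markers 2 entries matched (haemoglobin chains and band 3, 8 models), with summed levels of 210.2 to 371 CPM and 547 to 894 CPM. Of 5 stellate cell markers decorin and lumican matched, at 221 to 290 CPM and 107 to 168 CPM. The groups overlapped for adiponectin, the adipocyte marker found of 7, at 0.193 to 0.731 and 0.426 to 1.21 CPM, for cathepsin S, the macrophage marker found of 5, and for 3 of 4 biliary markers. None of these marker models was at 0 in all libraries. Of the 8 erythrocyte models 5 passed the filter on low counts, and all models of the other lists did. None of the marker models tested passed adjusted p, and their part in the malic enzyme result was not tested. In whole liver, fewer cells of a type and less RNA per cell cannot be told apart.

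The model on scaffold 4, which shared 4 neighbours with ME2, had 8.31, 7.62 and 8.25 CPM in the normally fed birds. It had 8.13, 14.7 and 11.8 CPM in the high-intake-fed birds. The normally fed birds were almost level, and high-intake-fed replicates 2 and 3 were above them while replicate 1 was among them. The log2 fold change was 0.52 ± 0.27 (SE, n = 3 against 3), with an adjusted p of 0.353 in edgeR and an exact permutation p of 0.3. The libraries held 117 to 231 counts of this model. Whether this model is the ME2 that the paper reports as higher is not stated.

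The scaffold 1 models, which shared 4 neighbours with ME3, had the fewest counts of the 5. Model 117.1 had 2.26, 2.25 and 2.84 CPM in the normally fed birds and 1.53, 3.36 and 1.09 CPM in the high-intake-fed birds, from 18 to 53 counts. The high-intake-fed birds lay on both sides of the normally fed birds. The log2 fold change was -0.29 ± 0.49 (SE, n = 3 against 3), with an adjusted p of 0.809 in edgeR. Model 117.2 did not pass the filter, with 7, 6 and 8 counts in the normally fed and 12, 5 and 11 counts in the high-intake-fed libraries. The groups overlapped (exact permutation p = 0.5). The exact 95% Poisson interval, for counting error only, is 1.62 to 11.7 for 5 counts and 6.2 to 21.0 for 12 counts. Summed, the scaffold 1 models gave a log2 fold change of -0.15 ± 0.39 (SE), with an adjusted p of 0.886.

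Levels of different models can be set side by side per length. Per kb of coding length, the normally fed means were 142 ± 84.6 CPM for model 423.1, 101 ± 66.7 for model 423.2, 4.49 ± 0.21 for model 885.2, 2.30 ± 0.32 for model 117.1 and 1.83 ± 0.34 for model 117.2 (SD, n = 3 each). The ranges of the birds overlapped within the first pair and within the last pair of this order. In each normally fed bird, however, model 423.1 was above model 423.2 and model 117.1 above model 117.2. These differences were not tested. In the high-intake-fed birds the means were 1712 ± 1943 CPM per kb for model 423.2, 1310 ± 1312 for model 423.1, 6.43 ± 1.82 for model 885.2, 2.50 ± 1.09 for model 117.2 and 1.87 ± 1.13 for model 117.1 (SD, n = 3 each). In every bird the scaffold 3 models were the highest per kb, and model 885.2 was above both scaffold 1 models. The deposited FPKM, given below, did not keep this order in every bird.

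Ratios within a library do not depend on the scaling between libraries. The scaffold 3 sum per kb was 16.7, 22.8 and 49.0 times the scaffold 4 model in the normally fed birds and 202, 369 and 38.8 times in the high-intake-fed birds. High-intake-fed replicate 3 was again within the normally fed range (exact permutation p = 0.2). Against the scaffold 1 sum the same ratio was 37.2, 48.8 and 87.9 in the normally fed and 506, 1071 and 189 in the high-intake-fed birds, without overlap. The scaffold 4 model was 2.22, 2.14 and 1.79 times the scaffold 1 sum in the normally fed and 2.51, 2.90 and 4.88 times in the high-intake-fed birds, also without overlap. Both of the latter had an exact permutation p of 0.1, the smallest possible. Both also rest on 29 to 58 counts of the scaffold 1 sum per library. The closest birds of the last ratio, at 2.22 and 2.51, had 41 and 34 of these counts. Whether that gap exceeds counting error was not tested. These ratios between scaffolds were chosen after the levels were seen.

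The ratio of neighbouring models shows whether they differed between the groups in step. Per kb of coding length, model 423.2 over model 423.1 was 0.899, 0.507 and 0.747 in the normally fed and 0.861, 1.42 and 1.74 in the high-intake-fed birds. High-intake-fed replicates 2 and 3 were above all normally fed birds and replicate 1 was among them. The mean log2 ratio was -0.52 ± 0.42 and 0.36 ± 0.52 (SD, n = 3 each), a difference of 0.88 with an exact permutation p of 0.2. Model 117.2 over model 117.1 was 0.902, 0.692 and 0.797 in the normally fed and 2.39, 0.413 and 2.68 in the high-intake-fed birds, on the few counts given above (exact permutation p = 0.4).

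**Figure D2:**
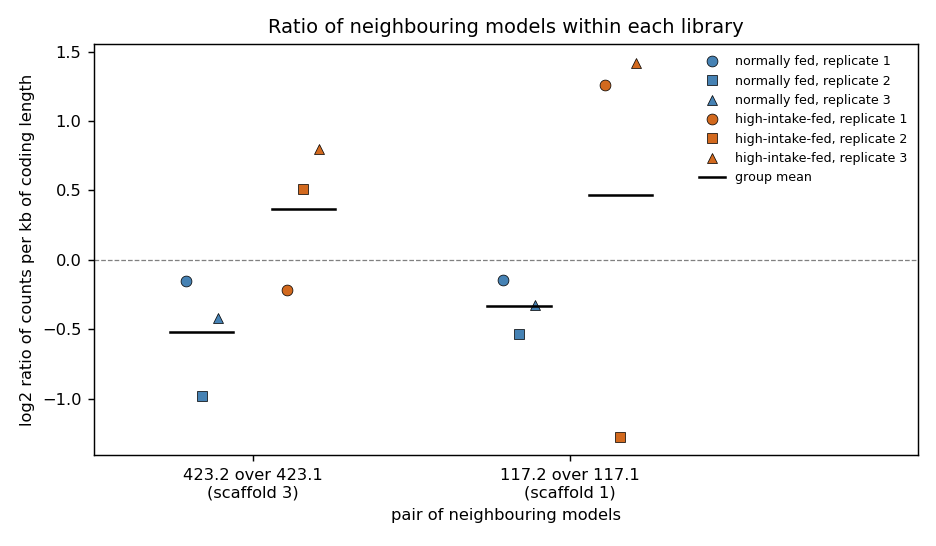
Log2 ratio of the counts per kb of coding length of neighbouring models, each bird a point and the group mean a bar. For the scaffold 3 pair the high-intake-fed birds reach 0.80 and the normally fed birds stay at or below -0.15, with high-intake-fed replicate 1 (-0.22) among the latter.

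The deposited FPKM (fragments scaled by length and library depth) gave another picture of the lowest birds. Model 423.1 was listed at 23.7, 28.9 and 61.3 FPKM in the normally fed and 291, 885 and 45.9 FPKM in the high-intake-fed birds. Model 423.2 was listed at 7.51, 0 and 32.4 FPKM and at 251, 1281 and 24.3 FPKM. On this scale high-intake-fed replicate 3 was below normally fed replicate 3 for both models. Normally fed replicate 2 was listed at 0 for model 423.2 although 195 counts were deposited for it. Counts scaled by coding length and library total exceeded the FPKM by 2.93 to 5.51 times for model 423.1 and by 2.92 to 18.1 times for model 423.2 in the 5 libraries above 0. Albumin was listed at an FPKM of 0 in all 6 libraries, so a listed 0 does not show absence in this table. The order between models also differed from that per kb. Model 885.2 was at 0.668, 1.20 and 0.835 FPKM in the normally fed birds, and model 117.1 at 0.746, 0.725 and 0.972. In normally fed replicate 3 model 117.2 was at 1.37 FPKM. Model 885.2 was thus below model 117.1 in normally fed replicates 1 and 3. In normally fed replicate 2 it was above model 423.2, listed at 0. Limma on log2(FPKM + 1) gave adjusted p of 0.349 for model 423.1 and 0.314 for model 423.2.

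Enzymes that supply NADPH or carry citrate and malate were described beside the malic enzymes. The list of 27 entries matched 23 with 32 models, 31 of them tested, the malic enzymes included. In edgeR 0 of the 31 passed adjusted p, while 12 were higher and 1 lower at an unadjusted p under 0.05, against 8.67% and 9.71% of all models (18.4% in either direction). DESeq2 called 6 of the list and the exact test 5, all of them higher, against 3.45% and 2.86% of all models called higher and 7.65% and 6.16% in either direction. The median log2 fold change was 0.57 over the list and 0.04 over all models tested. Model 423.2 had the highest log2 fold change of the list and model 423.1 the next.

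The other members with the smallest p were enzymes of several pathways. Transaldolase (TALDO1), of the non-oxidative pentose phosphate pathway, had 103, 100.5 and 143 CPM in the normally fed and 388, 2139 and 239 CPM in the high-intake-fed birds, a log2 fold change of 3.00 ± 0.79 (SE) at an adjusted p of 0.112. Its groups did not overlap, and it had the same order of high-intake-fed birds as the scaffold 3 models. Cytosolic malate dehydrogenase (MDH1), which makes the malate that ME1 uses, had 333, 341 and 562 CPM and then 898, 1757 and 530.5 CPM, with high-intake-fed replicate 3 below normally fed replicate 3 as in model 423.1. Its log2 fold change was 1.37 ± 0.47 (SE) at an adjusted p of 0.179.

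Phosphogluconate dehydrogenase (PGD), which makes NADPH in the oxidative pentose phosphate pathway, had 17.5, 17.2 and 42.0 CPM in the normally fed and 45.1, 262 and 71.7 CPM in the high-intake-fed birds (model 66.6, log2 fold change 2.30 ± 0.68 SE, adjusted p = 0.139). A model described as citrate synthase (CS, model 3.20), the enzyme that makes citrate, had 9.97, 7.09 and 4.90 CPM and then 11.9, 113 and 13.7 CPM. The groups did not overlap for these models, and high-intake-fed replicate 2 stood above all other birds. The second model of each enzyme, named after its values were seen, overlapped between the groups. PGD model 114.5 had 4.90 to 20.2 CPM in the normally fed and 15.7 to 54.3 CPM in the high-intake-fed birds, highest in replicate 1, and CS model 8.24 had 0.387 to 2.46 and 1.74 to 19.9 CPM. ATP citrate lyase (ACLY), named here as the enzyme between citrate and malate, had 1982, 2159 and 2204 CPM in the normally fed and 4350, 7475 and 2071 CPM in the high-intake-fed birds. Its groups overlapped through high-intake-fed replicate 3 (log2 fold change 1.13 ± 0.47 SE, adjusted p = 0.256). Cytosolic NADP isocitrate dehydrogenase (IDH1), another source of NADPH, had a log2 fold change of -0.84 ± 0.47 (SE) at an adjusted p of 0.398. It had 421, 443 and 538 CPM in the normally fed and 410, 97.1 and 278 CPM in the high-intake-fed birds, without overlap. Of the 31 tested models of the list, 6 were higher and 3 lower without overlap, against 11.1% and 13.3% of all tested models. The 3 were IDH1, mitochondrial NAD kinase (NADK2) and fumarase (FH). ACLY, IDH1, NADK2 and FH were named after their values were seen.

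The list of de novo lipogenesis, the pathway that uses the NADPH, matched 10 of 15 entries with 22 models, of which 20 were tested. In edgeR 0 of the 20 passed adjusted p, where 1.47% of all models did, with 7 higher and 2 lower at an unadjusted p under 0.05, against 8.67% and 9.71% of all models. The 7 include acetyl-CoA carboxylase models 106.5, 106.6 and 106.7, neighbours on scaffold 22 (10581833 to 10633132) that may be parts of a single gene. They are counted apart in all counts of this list. The median log2 fold change was 0.28 over the list and 0.04 over all models tested. DESeq2 called 7, of which 6 were higher, and the exact test 6, of which 5 were higher, against 7.65% and 6.16% of all models in either direction. Fatty acid synthase (FASN) had 19599, 15935 and 29207 CPM in the normally fed and 87310, 139880 and 39594 CPM in the high-intake-fed birds. Its groups did not overlap, and the order of the birds in each group was that of model 423.2, with replicate 2 highest under high intake and replicate 3 highest under normal feeding. The log2 fold change of FASN was 2.04 ± 0.59 (SE), at an adjusted p of 0.132.

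Stearoyl-CoA desaturase (SCD, model 202.3), which puts the first double bond into stearate, had a log2 fold change of 2.12 ± 0.49 (SE) at an adjusted p of 0.0859. The elongases ELOVL1 and ELOVL2, which lengthen fatty acids, had 1.89 ± 0.43 (adjusted p = 0.0781) and 1.27 ± 0.36 (adjusted p = 0.125). An acetyl-CoA carboxylase model (106.6), of the enzyme that makes malonyl-CoA, had 1.22 ± 0.32 (adjusted p = 0.106). A model of ELOVL6 (210.4) was lower in all high-intake-fed birds, at 42.8 to 62.0 CPM against 88.0 to 139 CPM, with a log2 fold change of -1.06 ± 0.25 (SE) and an adjusted p of 0.0889. The more abundant ELOVL6 model (665.0), named after its values were seen, had means of 617 and 1451 CPM and a log2 fold change in the other direction, 1.23 ± 0.62 (SE, adjusted p = 0.337). Of these 6 members, none had a fold change as high as those of the scaffold 3 models.

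**Figure D3:**
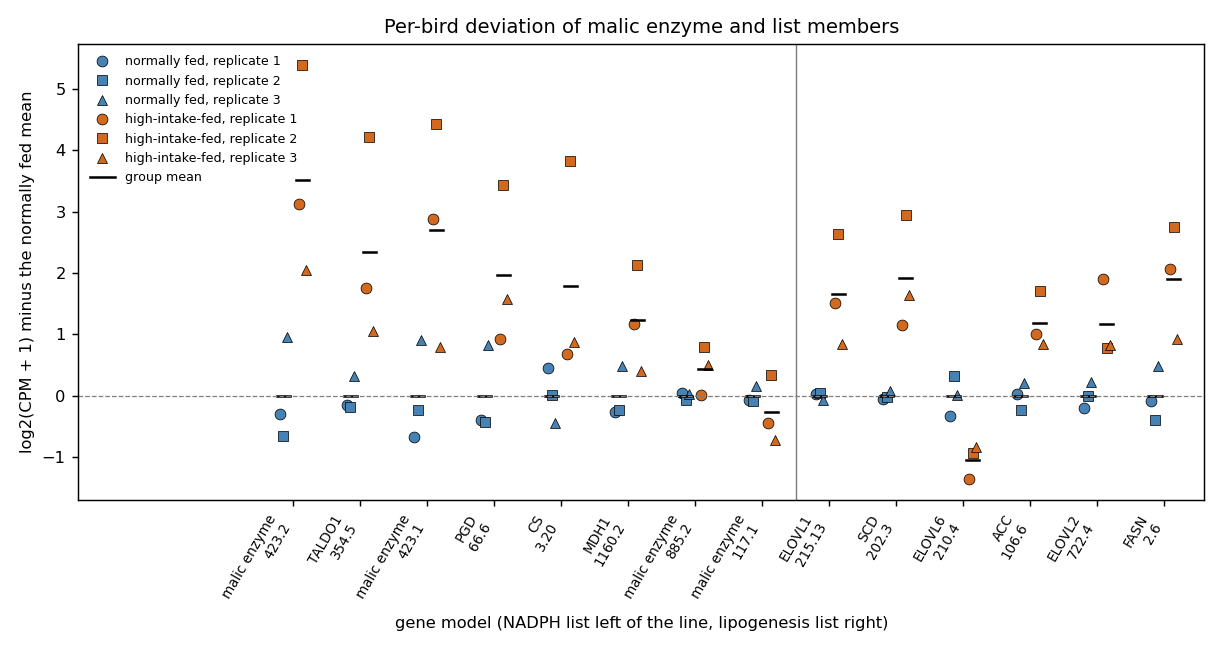
Deviation of each bird from the normally fed mean, in log2(CPM + 1), for the tested malic enzyme models and the 6 members with the smallest p of the NADPH list (left of the line) and of the lipogenesis list (right; ACC is acetyl-CoA carboxylase), bars being group means. High-intake-fed replicate 2 is the highest bird of most models. From lowest to highest high-intake-fed bird, models 423.1 (0.79 to 4.43) and 423.2 (2.05 to 5.39) have the widest range of those drawn. Transaldolase (1.06 to 4.22) and citrate synthase model 3.20 (0.68 to 3.82) are nearly as wide.

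The order of the high-intake-fed birds, replicate 2 above 1 above 3, was found in 3 of the 4 tested malic enzyme models, namely 423.1, 423.2 and 117.1. Models 423.1 and 423.2 are neighbours that may belong to a single gene. In model 117.1 replicates 1 and 3 had 22 and 18 counts. Their exact 95% Poisson intervals overlap (13.8 to 33.3 and 10.7 to 28.4), so their order is not resolved. The same order was found in 18.1% of all tested models, in 9 of the 27 other models of the NADPH list and in 11 of the 20 of the lipogenesis list. The 11 include models that lie close together on a scaffold and may not be separate genes. These are acetyl-CoA carboxylase 106.5, 106.6 and 106.7, acetyl-CoA synthetase (ACSS2) 119.2 and 119.3, and FADS1/FADS2 118.1 and 118.5. Models of a list come from the same 6 libraries, so these counts describe the birds and are given without a test.

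The models most like each malic enzyme model were sought by Pearson's r of log2(CPM + 1) over the 6 libraries, among 3650 models with a mean of at least 10 CPM and a name in capitals in their description. Models without such a name, among them the acetyl-CoA carboxylases on scaffold 22, were outside this search. Their r with model 423.2 was 0.995 (106.7), 0.990 (106.6) and 0.976 (106.5). Of the models searched, closest to model 423.1 were the large subunit of microsomal triglyceride transfer protein, which loads lipid onto lipoproteins (r = 0.999), a DnaJ co-chaperone of subfamily A (0.996), pantothenate kinase 1, which starts coenzyme A synthesis (0.994), MDH1 (0.993) and an ankyrin repeat protein (0.993). Of the same models, closest to model 423.2 were SOS1, a Ras exchange factor (0.997), a bromodomain protein (0.989), golgin A3 (0.988), syntrophin (0.987) and FASN (0.986). The models 423.1 and 423.2 correlated with each other at r = 0.970, and the scaffold 1 neighbours 117.1 and 117.2, on few counts, at r = -0.777. At r over 0.95 there were 98 models for 423.1 and 66 for 423.2, so that many models share these profiles.

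Model 885.2 was closest to a faciogenital dysplasia protein (r = 0.985), apolipoprotein F (0.979), an amino acid transporter (0.976), the elongation factor ELL (0.974) and Smaug homolog 1 (0.972). It correlated with model 423.1 at r = 0.652 and with model 423.2 at r = 0.787. Model 117.1 was closest to an organic anion transporter (r = 0.995), a poly(A) RNA polymerase (0.985), nucleolin (0.979), a sodium/hydrogen exchanger (0.971) and glycine amidinotransferase (0.958). All of these correlations rest on 6 libraries that share their scaling and are given as descriptions.

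The fold changes under each processing choice kept their direction for the scaffold 3 models and for model 885.2. Over these 16 alternatives model 885.2 ranged from 0.29 to 0.71 on the log2 scale, with adjusted p of 0.211 or more.

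**Figure D4:**
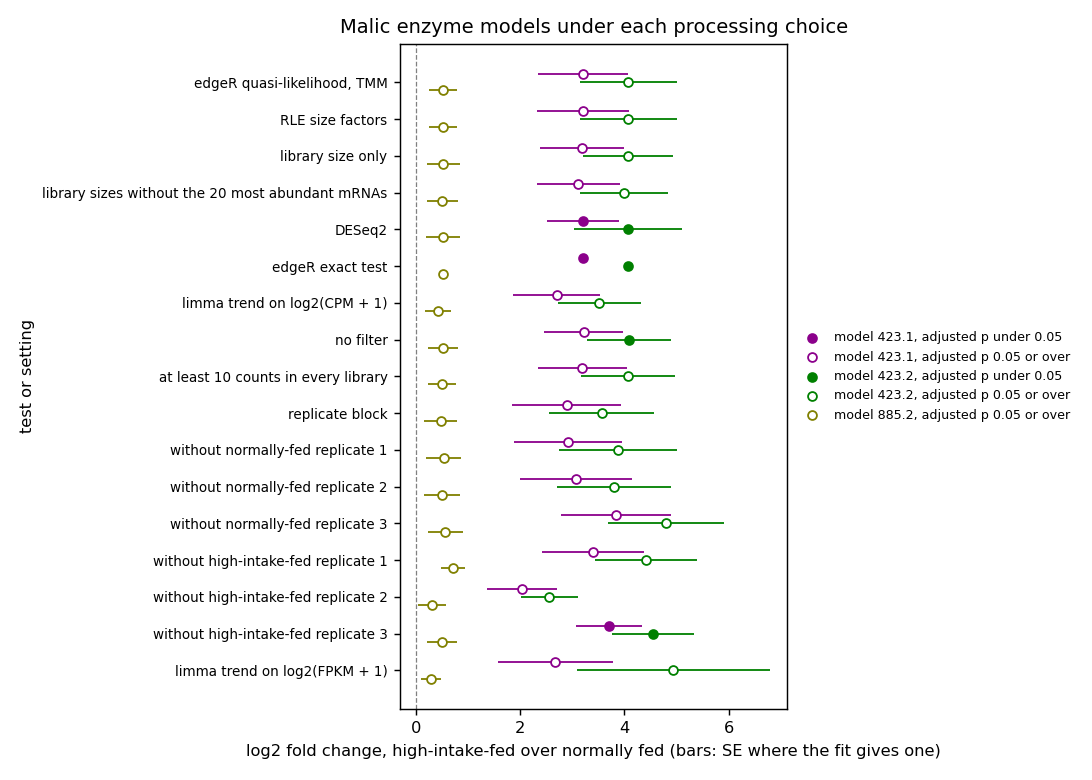
Log2 fold change, high-intake-fed over normally fed, of models 423.1, 423.2 and 885.2 under each test or setting. Bars are SE, given for all but the exact test, and filled points mark adjusted p under 0.05. The values lie between 2.04 and 3.84 for model 423.1 and between 2.56 and 4.94 for model 423.2, lowest without high-intake-fed replicate 2, and model 885.2 has no filled point.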

How the data were processed

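Liver RNA was depleted of ribosomal RNA with probes and made into strand-specific libraries. The authors removed ribosomal reads with Bowtie2 and aligned the rest with HISAT2. They deposited raw counts per gene model, and FPKM for the same models. The labels' processing notes also name FastQC and BWA. The paper names StringTie for quantification of genes and HTseq within its Gene Ontology analysis, and does not say which program made the deposited counts. Strand setting, genome build and annotation version are not stated. The fragments of a split gene could divide its reads between models. Each library is from a separate bird.

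The quasi-likelihood test of edgeR 4.0.16 was run on the counts after TMM scaling. The SE given for it was derived, as the absolute log2 fold change divided by the square root of the F statistic of the test. filterByExpr (minimum count 10, minimum total 15) left 12914 models, over all of which Benjamini-Hochberg adjustment was made. The script was tested on simulated data. DESeq2 1.42.0, the exact test of edgeR, limma 3.58.1 on log2(CPM + 1) or log2(FPKM + 1), other scalings and filters, a replicate block and leaving out each bird were alternatives. Single values used exact permutation tests, two-sided, whose smallest p is 0.1. Coding lengths were all multiples of 3 and hold no UTRs. Named were all malic enzyme models, the 6 members of each list with the smallest p, and the 5 most similar models. RefSeq gene names are from the Taihu goose assembly, used for names and gene order only. Members, lists and markers were chosen with earlier results of these data known. No sequence is shown.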

Additional observations from a re-analysis of the deposited data

How the results depend on the processing

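Of the malic enzyme models 0 of 4 passed adjusted p in edgeR's quasi-likelihood test, 2 of 4 with DESeq2 and 2 of 4 with the exact test. With no filter on low counts 1 of 5 passed. When single birds were left out, 2 of 4 passed without high-intake-fed replicate 3, and 0 of the 4 or 5 tested in every other case. In 12 of the 16 alternatives none passed. The log2 fold change of model 423.1 was 3.21 with DESeq2 and 3.21 with the exact test, that of model 423.2 was 4.08 with both and 4.09 with no filter (adjusted p = 0.0259), and that of the scaffold 3 sum was 3.39 with both. Leaving out birds gave 2.04 to 3.84, 2.56 to 4.80 and 2.13 to 4.04 for these. Model 117.1 ranged from -0.90 to 0.0058 and the scaffold 1 sum from -0.49 to 0.068 without single birds, uncalled throughout. The difference in log2 ratio of the scaffold 3 models kept its sign, at 0.65 to 1.17 without single birds and 1.09 from FPKM. The FPKM value used 5 libraries, without normally fed replicate 2, where model 423.2 was listed at 0. The FPKM did not keep the place of high-intake-fed replicate 3. There model 423.2 was below model 423.1 (24.3 and 45.9 FPKM), whereas by counts per kb it was above (ratio 1.74). Over all models, 190 calls became 986 with DESeq2, 795 with the exact test, 335 with no filter, 25 with limma on FPKM and 30 to 511 without single birds (511 without high-intake-fed replicate 3, 30 without normally fed replicate 3). The NADPH list had 6, 5 and 1 calls with DESeq2, the exact test and no filter and 0 to 4 without single birds, and the lipogenesis list had 7, 6 and 1 and 0 to 1. The causes were not tested. Same-numbered birds correlated at -0.16, 0.03 and -0.18 in their deviations, and birds of different numbers at -0.083 to 0.22. With so few birds per group these values cannot decide whether the numbers pair them. The numbers are running numbers of the sample titles, and the paper describes a random choice of the sequenced geese within each group. The paper names paired t-tests and does not say how birds were paired. With the replicate number as a block, 61 models were called and none of the malic enzyme models (adjusted p = 0.306 for 423.1 and 0.206 for 423.2). Summed FPKM were not fitted. The common biological coefficient of variation over all tested models was 0.356. Model 117.2, at 5 to 12 counts, has the largest relative counting error of the 5 models.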
